A study of Homo sapiens with 8 samples.

Results

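The 10 genes described here encode the NF-kB subunits and a set of feedback genes that NF-kB switches on. They were chosen by symbol: NFKB1, REL and RELA as canonical subunits, NFKB2 and RELB as non-canonical subunits, and NFKBIA, NFKBIE, TNFAIP3, TRAF1 and BIRC3 as feedback genes. All 10 were among the 15597 genes listed for every library, and all 10 were among the 9805 genes tested. The cells were SUDHL-4, a human cell line grown from a diffuse large B-cell lymphoma with a germinal-centre profile. The 4 groups, with 2 libraries each, were FDX1-OE cells (genotype labelled FDX1 overexpression) in 5 nM elesclomol (ES), FDX1-OE cells in DMSO, control cells (genotype labelled WT) in 5 nM ES, and control cells in DMSO, each for 48 h. Elesclomol is a small molecule that carries copper into cells, and FDX1 is a mitochondrial ferredoxin. The promoter or vector that drives FDX1, what the control cells carry in its place, and whether the FDX1-OE line is a clone are not stated by the labels.

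NF-kB proteins are dimers that bind kB sites in DNA. In the canonical route, dimers of RELA or REL with the product of NFKB1 are held in the cytoplasm by inhibitors such as the products of NFKBIA and NFKBIE until the IKK kinase complex marks these for destruction. In the non-canonical route, receptors such as CD40 stabilise the kinase encoded by MAP3K14, and the precursor encoded by NFKB2 is cut to a form that pairs with RELB. NF-kB induces many genes of its own control, among them NFKB2, RELB, NFKBIA and TNFAIP3, and both routes act in germinal-centre B cells and in lymphomas that arise from them.

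The kB sites in front of the genes were read from RefSeq promoter windows, since NF-kB proteins bind such sites. Sites outside these windows were not searched. Windows were found for 8 of the 10 genes, all but RELB and NFKBIE. A strict kB motif (3 G, any 2 bases, 3 T and 2 C), searched on both strands, occurred within 250 bases before a start of 6 of these 8 genes, and in 2.12% of the 27305 genes with a window. The looser kB consensus occurred before a start of the same 6 genes and of 6.28% of all genes. A gene can have more than 1 window: the 8 genes had 14, of which 7 held the strict motif, against 1.73% of all 35116 windows. The genes were chosen for their part in NF-kB, some as its targets, so these shares follow in part from the choice and were not tested. One place can match both motifs, and RELA and TRAF1 had neither in these windows. The sites below are written 5′ to 3′ in the direction of the gene (build GRCh38.p14), with the strict motif or its reverse complement in capitals.
NFKB1 at chr4:102501300-102501329, plus strand: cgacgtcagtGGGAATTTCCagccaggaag
REL at chr2:60881518-60881547, plus strand: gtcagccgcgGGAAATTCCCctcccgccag
NFKB2 at chr10:102394490-102394519, plus strand: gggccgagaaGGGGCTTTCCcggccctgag
NFKB2, before a later start, at chr10:102395674-102395703, plus strand: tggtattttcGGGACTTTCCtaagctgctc
NFKBIA at chr14:35404811-35404840, minus strand: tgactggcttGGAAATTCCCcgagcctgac
TNFAIP3 at chr6:137867182-137867211, plus strand: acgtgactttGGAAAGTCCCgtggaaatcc
TNFAIP3, a further site, at chr6:137867194-137867223, plus strand: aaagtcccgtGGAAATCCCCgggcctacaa
BIRC3 at chr11:102317275-102317304, plus strand: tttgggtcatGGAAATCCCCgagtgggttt
The motifs begin between 199 and 21 bases before the start. The same motif letters stand before NFKB1 and REL as before NFKBIA, GGGAATTTCC on one strand or the other. A match describes letters and no binding was measured.

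The values are FPKM, read numbers scaled to the length of the gene and the size of the library, so that levels can be set side by side between genes. Library totals, recovered from the steps of the values, lay between 33435438 and 35883528 reads. The lowest number of reads for any of the 10 genes in a library was 109, for TNFAIP3, and REL had the most, up to 7550. FDX1 stood at 82.5 and 84.8 FPKM in FDX1-OE cells in ES, 72.4 and 69.9 FPKM in FDX1-OE cells in DMSO, 21.3 and 21.4 FPKM in control cells in ES, and 25.6 and 22.2 FPKM in control cells in DMSO. The libraries thus match their genotype labels. The B-cell markers MS4A1, CD79A, CD79B, PAX5, CD22 and BLNK and all 6 germinal-centre markers were at 1 FPKM or more in every library. Of 4 plasma cell markers, XBP1 and TNFRSF17 reached that level in every group, and the defining ones PRDM1 and SDC1 did not.

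Most markers of other cell types were low, but their sums moved with ES. The 7 listed myeloid markers summed to between 36.8 and 39.8 FPKM in FDX1-OE cells in ES, between 7.07 and 8.18 FPKM in FDX1-OE cells in DMSO, between 12.3 and 16.7 FPKM in control cells in ES, and between 4.08 and 4.30 FPKM in control cells in DMSO. CD68 and FCER1G made up most of these sums, and were not low in FDX1-OE cells in ES, at 17.5 and 20.3 FPKM on average. The group means of the defining markers CD14, CSF1R, CD33, ITGAM and LYZ were between 0 and 0.19 FPKM. The 6 listed T and NK cell markers summed to at most 8.57 FPKM, nearly all of it CD3E, with CD3D and CD3G at 0.017 FPKM or less on average in every group. Epithelial and stromal markers summed to at most 2.01 FPKM, in FDX1-OE cells in ES. The part of these markers in the changes of the 10 genes was not tested. In such bulk RNA a rise in every cell and a larger share of cells with the RNA cannot be told apart.

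**Figure D1:**
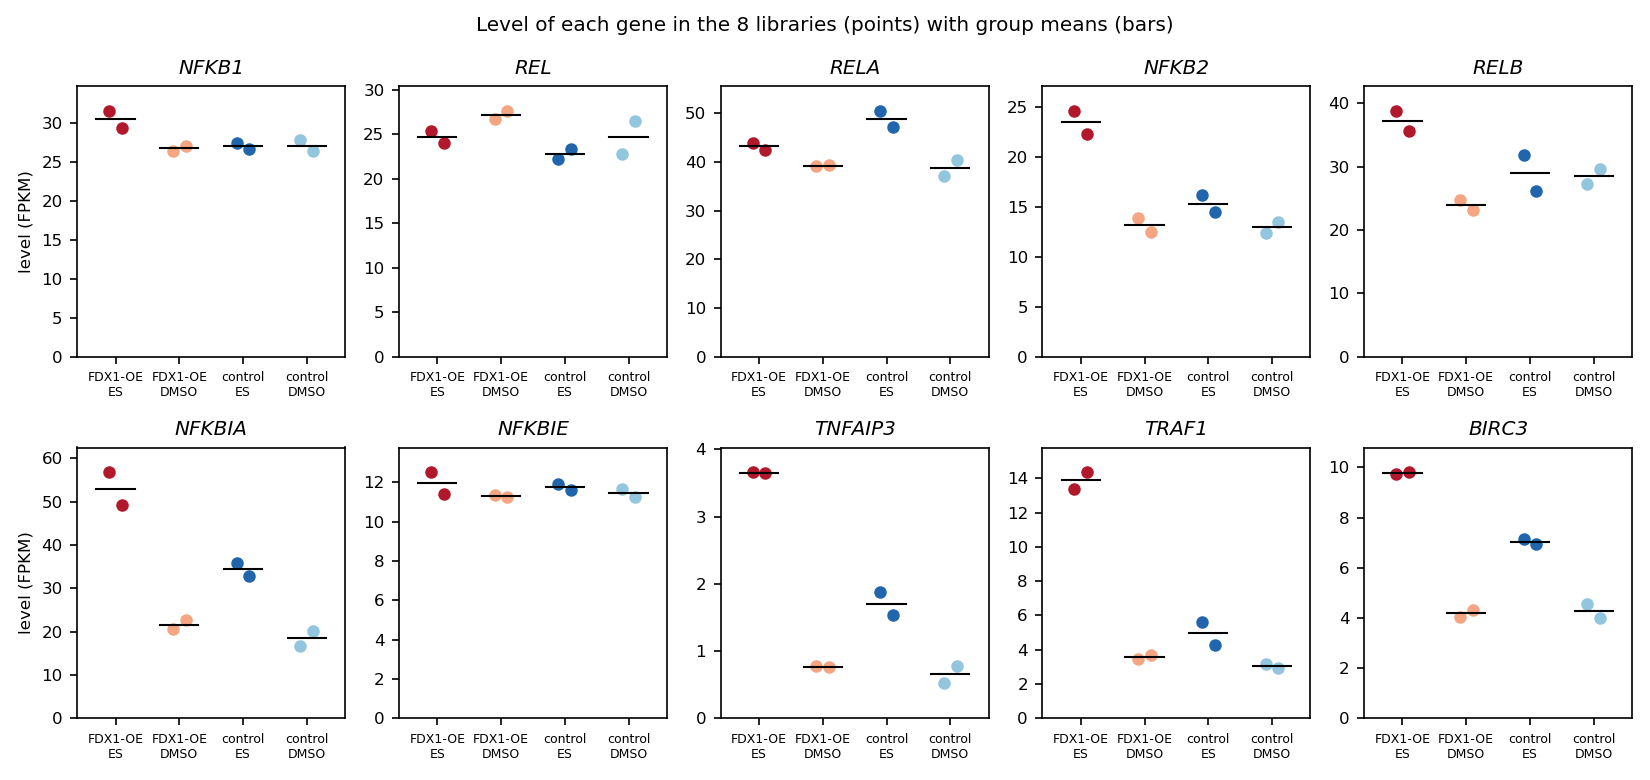
Level (FPKM, linear axes from 0) of the 10 genes in the 8 libraries, one panel a gene, with points for libraries and bars for the means of 2. NFKB2, RELB, NFKBIA, TNFAIP3, TRAF1 and BIRC3 have their highest points in FDX1-OE cells in ES, while NFKBIE stays between 11.2 and 12.5 FPKM.

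In DMSO the 10 genes spanned a wide range of levels in both genotypes. In FDX1-OE cells RELA was highest, at 39.2 FPKM on average, and TNFAIP3 lowest, at 0.767 FPKM. In control cells RELA was likewise highest, at 38.7 FPKM, and TNFAIP3 lowest, at 0.655 FPKM. Below RELA came RELB, NFKB1 and REL in control cells in DMSO, whose libraries overlapped, and then NFKBIA, NFKB2, NFKBIE, BIRC3 and TRAF1, each of them above the next in every library. In ES the order changed in FDX1-OE cells, where NFKBIA stood first at 53.0 FPKM and TRAF1 stood above NFKBIE and BIRC3. In control cells in ES RELA stayed first, at 48.8 FPKM, with NFKBIA next.

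Among the canonical subunits, none changed by more than 1.26 times in either genotype. NFKB1, whose precursor is processed to a DNA-binding partner of RELA and REL, was at 31.6 and 29.5 FPKM in FDX1-OE cells in ES and at 26.5 and 27.2 FPKM in FDX1-OE cells in DMSO. These libraries did not overlap, and NFKB1 rose 1.13 times (log2 change 0.18, SE 0.06, limma adjusted p = 0.0220). The call was lost with RLE scaling (log2 change 0.08, adjusted p = 0.247) and when FDX1-OE DMSO replicate 1 (adjusted p = 0.112), its replicate 2 (0.0592) or FDX1-OE ES replicate 1 (0.146) was left out. In control cells NFKB1 was at 27.5 and 26.8 FPKM in ES and 27.8 and 26.5 FPKM in DMSO, values that overlapped (adjusted p = 0.992, 95% interval of the fold 0.914 to 1.09).

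RELA, which carries the strong activation domain of the canonical dimer, was the canonical subunit that rose in control cells. It had 50.5 and 47.2 FPKM in control cells in ES, against 37.0 and 40.4 FPKM in control cells in DMSO. Both ES libraries lay above both DMSO libraries, and RELA rose 1.26 times (log2 change 0.33, SE 0.06, limma adjusted p = 0.00203). In FDX1-OE cells RELA had 43.9 and 42.4 FPKM in ES and 39.1 and 39.3 FPKM in DMSO, a fold of 1.10 that did not pass (adjusted p = 0.0752, 95% interval 1.002 to 1.21). The difference between the genotypes' responses did not pass (log2 difference -0.19, adjusted p = 0.218).

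REL, the subunit most tied to lymphoid cells, passed in no comparison. It was at 25.4 and 24.0 FPKM in FDX1-OE cells in ES, 26.7 and 27.7 FPKM in FDX1-OE cells in DMSO, 22.3 and 23.4 FPKM in control cells in ES, and 22.8 and 26.5 FPKM in control cells in DMSO. The libraries in ES lay below those in DMSO in FDX1-OE cells and overlapped them in control cells. The fold was 0.912 in FDX1-OE cells (95% interval 0.815 to 1.02, limma adjusted p = 0.142) and 0.930 in control cells (0.832 to 1.04, adjusted p = 0.281). With RLE scaling REL passed as lower in FDX1-OE cells (log2 change -0.23, adjusted p = 0.0212). In GENCODE 29 the exons of REL cover 13170 bases and share 5702 of them with a non-coding gene on the same strand. The REL length behind the deposited values is 7935 bases, so the gene models differ. Some reads may belong to either gene if the shared bases were counted, which is not known.

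Both non-canonical subunits rose with ES in FDX1-OE cells, and one of them, at the threshold, in control cells. NFKB2, whose precursor is processed in the non-canonical route, had 24.7 and 22.3 FPKM in FDX1-OE cells in ES, against 13.9 and 12.5 FPKM in FDX1-OE cells in DMSO. The groups did not overlap, and NFKB2 rose 1.72 times (log2 change 0.78, SE 0.08, limma adjusted p = 2.44e-05). Control cells had 16.2 and 14.5 FPKM in ES, against 12.4 and 13.5 FPKM in DMSO, and NFKB2 rose 1.17 times (log2 change 0.23, SE 0.08, adjusted p = 0.0487). That call was at the threshold. It was lost with no filter (adjusted p = 0.131), with RLE scaling (0.141), and without control DMSO replicate 1 (0.240), control DMSO replicate 2 (0.0630) or control ES replicate 1 (0.268), where the log2 change was 0.15.

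RELB, the partner of the processed NFKB2 product, had 38.8 and 35.6 FPKM in FDX1-OE cells in ES, against 24.7 and 23.2 FPKM in FDX1-OE cells in DMSO. It rose 1.53 times there (log2 change 0.62, SE 0.09, limma adjusted p = 0.000180). In control cells RELB had 31.8 and 26.2 FPKM in ES and 27.3 and 29.6 FPKM in DMSO, so that the ES libraries lay on either side of the DMSO libraries (fold 1.01, 95% interval 0.888 to 1.16, adjusted p = 0.869). The sign of this small value turned with RLE scaling (-0.05) and without control DMSO replicate 1 (-0.03) or control ES replicate 1 (-0.11).

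Set against each other within a library, where scaling cancels, the non-canonical pair had its highest share in FDX1-OE cells in ES. NFKB2 and RELB together made up 38.6% and 37.7% of the summed FPKM of the 5 subunits in FDX1-OE cells in ES and 29.5% and 27.5% in FDX1-OE cells in DMSO. In control cells they made up 32.4% and 29.5% in ES and 31.2% and 31.6% in DMSO. The shares in FDX1-OE cells in ES lay above those of the other 6 libraries. In DMSO the shares were lower in FDX1-OE cells than in control cells, without overlap. The ratio of NFKB2 to NFKB1 was 0.779 and 0.757 in FDX1-OE cells in ES, 0.526 and 0.461 in FDX1-OE cells in DMSO, 0.591 and 0.540 in control cells in ES, and 0.445 and 0.511 in control cells in DMSO. The ratio of RELB to RELA was 0.884 and 0.840 in FDX1-OE cells in ES and 0.631 and 0.590 in FDX1-OE cells in DMSO. In control cells it was lower in ES, at 0.629 and 0.555 in ES and 0.738 and 0.732 in DMSO. These shares and ratios were not tested; with 2 libraries a group the smallest p that an exact permutation test (two-sided) can give is 0.33.

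**Figure D2:**
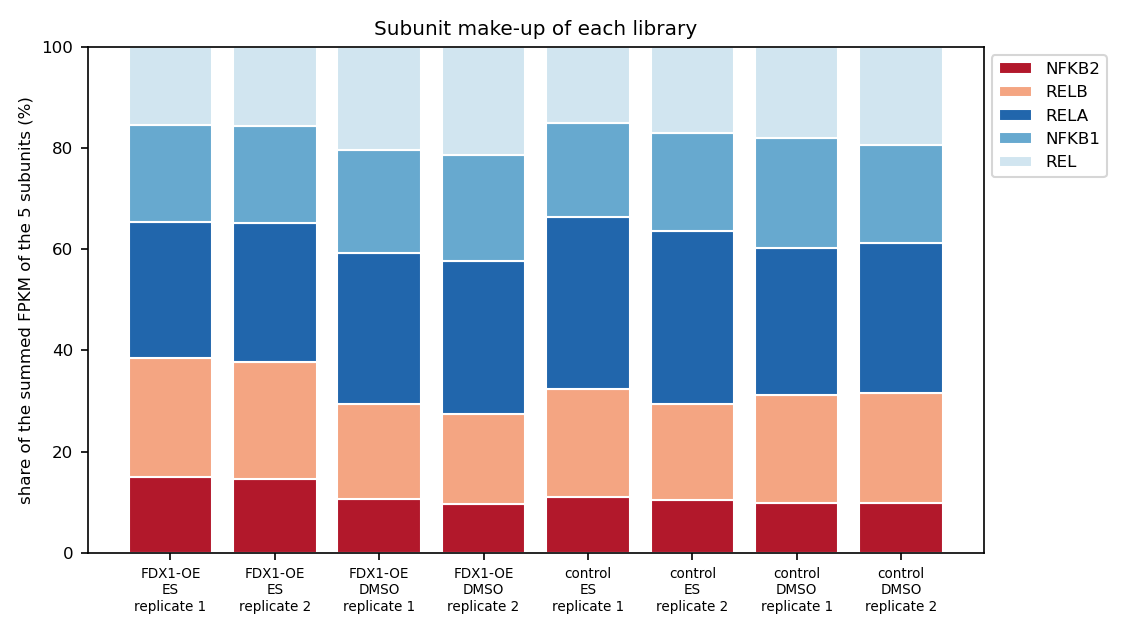
Share (%) of each of the 5 NF-kB subunits in their summed FPKM, one stacked bar a library, with the non-canonical NFKB2 and RELB at the bottom. The non-canonical part reaches 38.6% and 37.7% in FDX1-OE cells in ES and stays at or below 32.4% in the other 6 libraries.

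Of the 5 feedback genes, 4 rose in both genotypes, and in FDX1-OE cells their log2 changes were above those of the other 6 genes. NFKBIA, the main inhibitor of RELA dimers and an early NF-kB target, had 56.8 and 49.2 FPKM in FDX1-OE cells in ES, against 20.6 and 22.6 FPKM in FDX1-OE cells in DMSO, and rose 2.39 times (log2 change 1.25, SE 0.09, limma adjusted p = 3.07e-06). Control cells had 35.8 and 32.9 FPKM in ES, against 16.8 and 20.1 FPKM in DMSO, and NFKBIA rose 1.82 times (log2 change 0.87, SE 0.09, adjusted p = 0.000109). The groups did not overlap in either genotype. There were 1.29 and 1.16 NFKBIA transcripts per RELA transcript, by FPKM, in FDX1-OE cells in ES and 0.527 and 0.577 in FDX1-OE cells in DMSO, and 0.709 and 0.698 in control cells in ES and 0.454 and 0.498 in control cells in DMSO.

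NFKBIE encodes another inhibitor of the same family; its levels were close together. NFKBIE had 12.5 and 11.4 FPKM in FDX1-OE cells in ES, 11.3 and 11.2 FPKM in FDX1-OE cells in DMSO, 11.9 and 11.6 FPKM in control cells in ES, and 11.6 and 11.2 FPKM in control cells in DMSO. It passed in none of the 5 comparisons. The 95% interval of its fold with ES was 0.953 to 1.16 in FDX1-OE cells (limma adjusted p = 0.350) and 0.928 to 1.13 in control cells (adjusted p = 0.685). The NFKBIA to NFKBIE ratio was 4.54 and 4.32 in FDX1-OE cells in ES, against 1.82 and 2.01 in FDX1-OE cells in DMSO, and 3.001 and 2.84 in control cells in ES, against 1.44 and 1.79 in control cells in DMSO.

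TNFAIP3 encodes A20, which edits ubiquitin chains and damps signalling to IKK. Its RNA was scarce, at 3.66 and 3.64 FPKM in FDX1-OE cells in ES, 0.774 and 0.760 FPKM in FDX1-OE cells in DMSO, 1.88 and 1.53 FPKM in control cells in ES, and 0.528 and 0.783 FPKM in control cells in DMSO. It rose 2.63 times on FPKM + 1 in FDX1-OE cells (log2 change 1.40, SE 0.10, limma adjusted p = 2.64e-06) and 1.64 times in control cells (log2 change 0.71, SE 0.10, adjusted p = 0.000573). The added 1 holds down these folds: with 0.1 added instead, the log2 changes were 2.11 in FDX1-OE cells and 1.27 in control cells. TNFAIP3 reached 1 FPKM in ES libraries alone, and so entered the test through the groups where it is high. With no filter both rises of TNFAIP3 still passed (limma adjusted p = 0.000559 in FDX1-OE cells and 0.00847 in control cells). In GENCODE 29 an antisense gene shares 95 bases with its exons.

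TRAF1, a signalling adaptor of TNF receptors that binds the TRAF and IAP proteins, had the largest log2(FPKM + 1) change of the 10 in FDX1-OE cells, and NFKBIA had it in control cells. TRAF1 had 13.4 and 14.4 FPKM in FDX1-OE cells in ES, against 3.44 and 3.67 FPKM in FDX1-OE cells in DMSO. The gap between these groups was many times their spread, and TRAF1 rose 3.26 times (log2 change 1.71, SE 0.10, limma adjusted p = 7.97e-07). Its control levels were 5.63 and 4.30 FPKM in ES, against 3.16 and 2.93 FPKM in DMSO, and TRAF1 rose 1.47 times (log2 change 0.55, SE 0.10, adjusted p = 0.00202). In FDX1-OE cells TNFAIP3 changed more than TRAF1 with a pseudocount of 0.1 (log2 change 2.11 for TNFAIP3 and 1.93 for TRAF1) and with voom (2.25 and 1.96). In control cells it likewise changed more than NFKBIA with a pseudocount of 0.1 (log2 change 1.27 for TNFAIP3 and 0.90 for NFKBIA) and with voom (1.39 and 0.90). TRAF1 is the one of these 4 feedback genes whose promoter windows could be read and held no kB motif.

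BIRC3, which encodes a ubiquitin ligase of the IAP family that keeps the non-canonical kinase low and aids canonical signalling, had 9.73 and 9.81 FPKM in FDX1-OE cells in ES, against 4.05 and 4.31 FPKM in FDX1-OE cells in DMSO. It rose 2.08 times (log2 change 1.06, SE 0.07, limma adjusted p = 2.23e-06). In control cells BIRC3 had 7.13 and 6.95 FPKM in ES, against 4.55 and 3.98 FPKM in DMSO, and rose 1.53 times (log2 change 0.61, SE 0.07, adjusted p = 0.000217). In each genotype both ES libraries lay above both DMSO libraries.

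Counted together, 7 of the 10 genes rose with ES in FDX1-OE cells and 0 fell, where 37% of all tested genes rose and 19.2% fell. In control cells 6 of 10 rose and 0 fell, where 25.5% of all tested genes rose and 12.9% fell. TNFAIP3, which is in both counts, entered the test through ES libraries alone. The median log2 change of the 3 canonical subunits was 0.14 in FDX1-OE cells and 0.00 in control cells, that of the 2 non-canonical subunits 0.70 and 0.12, and that of the 5 feedback genes 1.25 and 0.61. Over all tested genes the median was 0.09 in FDX1-OE cells and 0.06 in control cells.

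**Figure D3:**
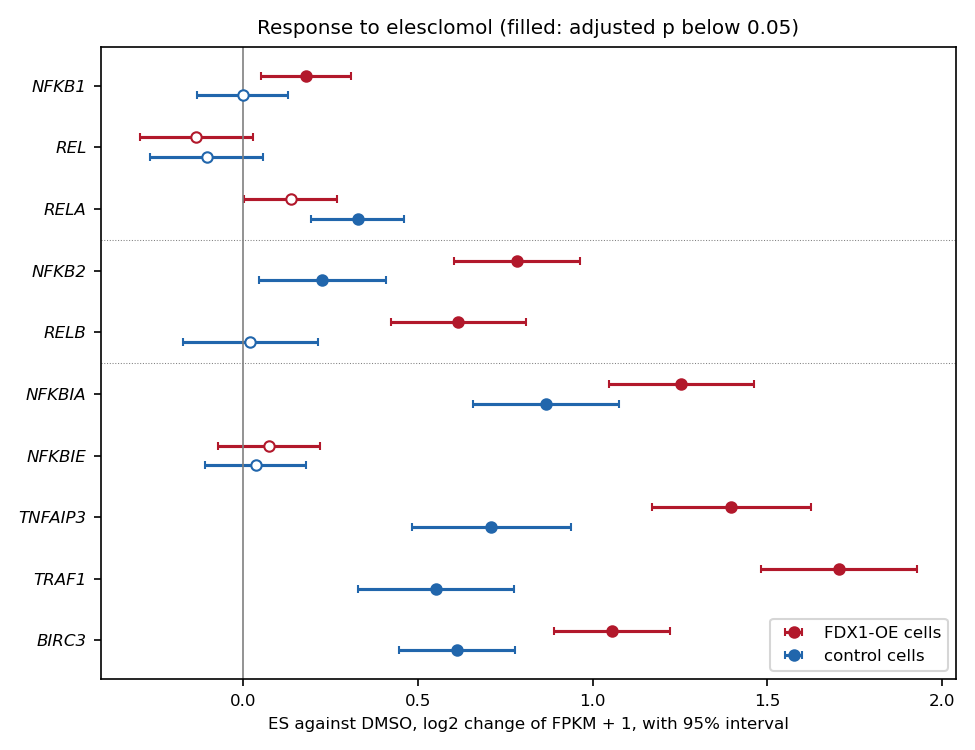
Log2 change of FPKM + 1 with ES for each gene in FDX1-OE cells (red, above) and control cells (blue), with 95% intervals from limma and filled points at an adjusted p below 0.05. TRAF1 reaches 1.71 in FDX1-OE cells and 0.55 in control cells, and RELA alone of the canonical subunits is filled in control cells.

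Without drug, no difference between the genotypes passed for these genes. In DMSO 0 of the 10 genes passed in FDX1-OE against control cells by limma, where 0.428% of all tested genes were higher and 0.0816% lower, and 2 had an unadjusted p below 0.05. With voom 0 passed and 3 had an unadjusted p below 0.05. The largest differences were those of RELB (log2 difference -0.24, 95% interval -0.43 to -0.05, adjusted p = 0.538) and NFKBIA (0.22, 0.01 to 0.43, adjusted p = 0.637). RELB had 24.7 and 23.2 FPKM in FDX1-OE cells in DMSO and 27.3 and 29.6 FPKM in control cells in DMSO, without overlap.

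Under ES, FDX1-OE cells had higher levels than control cells for 6 of the 10 genes and lower levels for 0, where 13.6% of all tested genes were higher and 7.78% lower. TRAF1 was 2.51 times higher (log2 difference 1.33, SE 0.10, limma adjusted p = 2.82e-05), TNFAIP3 1.72 times (adjusted p = 0.000780), NFKBIA 1.52 times (adjusted p = 0.00199), NFKB2 1.50 times (adjusted p = 0.00117) and BIRC3 1.34 times (adjusted p = 0.00383). RELB was 1.28 times higher (adjusted p = 0.0171), a call lost without the filter (adjusted p = 0.0800) and without control ES replicate 2 (0.136) or FDX1-OE ES replicate 1 (0.113). RELA was 0.886 times its level in control cells (adjusted p = 0.0628) and passed as lower with RLE scaling (adjusted p = 0.0335) and with voom (0.0445). NFKB1 passed as higher with voom (adjusted p = 0.0440; 0.0684 in limma on FPKM).

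The response to ES differed between the genotypes for 5 of the 10 genes, each with the larger rise in FDX1-OE cells, where 3.25% of all tested genes passed with a positive difference and 1.05% with a negative one. TRAF1 had the largest difference, a log2 difference of 1.15 (SE 0.14, limma adjusted p = 0.00326), and it passed in all 14 alternatives. TNFAIP3 had a log2 difference of 0.69 (adjusted p = 0.0307), RELB of 0.60 (adjusted p = 0.0283), NFKB2 of 0.56 (adjusted p = 0.0288) and BIRC3 of 0.44 (adjusted p = 0.0449). NFKBIA did not pass (log2 difference 0.39, 95% interval 0.09 to 0.68, adjusted p = 0.120). These 4 calls beside TRAF1 lay close to the threshold. NFKB2 passed in 8 of 14 alternatives, RELB in 7 of 14, TNFAIP3 in 4 of 13 and BIRC3 in 3 of 14, with log2 differences that stayed between 0.36 and 0.86. The number of genes that passed was 3 with a pseudocount of 0.1 and 1 without the filter on low values. With 1 library left out it was 1 without replicate 2 of control cells in DMSO, FDX1-OE cells in DMSO or control cells in ES, or replicate 1 of FDX1-OE cells in ES. It was 2 without replicate 1 of control or of FDX1-OE cells in DMSO, 3 without FDX1-OE ES replicate 2 and 4 without control ES replicate 1.

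**Figure D4:**
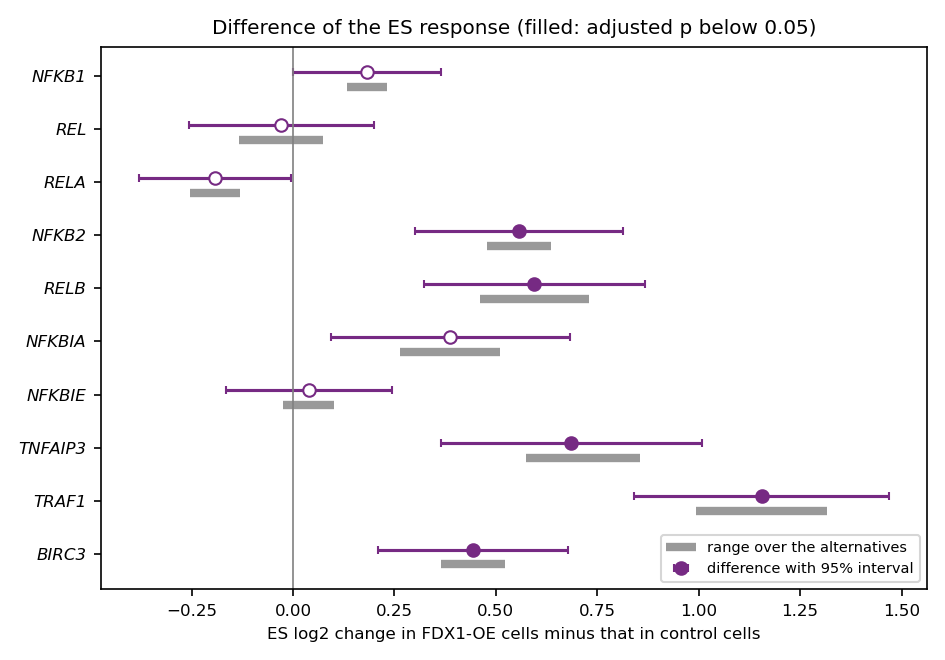
ES log2 change in FDX1-OE cells minus that in control cells (points with 95% intervals from limma, filled at an adjusted p below 0.05) and the range of the same value over the alternatives (grey bars). TRAF1 is highest at 1.15, and the bars of NFKB2, RELB, TNFAIP3, TRAF1 and BIRC3 all lie above 0.

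Other genes of the pathway were counted from lists chosen with earlier results of these data known. Of 27 tested kinases and adaptors that act on or above IKK, 11 rose and 2 fell with ES in FDX1-OE cells, and 6 rose and 3 fell in control cells (median log2 change 0.16 and 0.12). Of all tested genes 37% rose and 19.2% fell in FDX1-OE cells and 25.5% rose and 12.9% fell in control cells, so the rising members of this list were near the share of all genes. The linear ubiquitin chain assembly genes RBCK1 and SHARPIN were among those that rose in both genotypes. RBCK1 rose by a log2 change of 0.76 in FDX1-OE cells (limma adjusted p = 1.99e-05) and 0.55 in control cells (adjusted p = 0.000469). SHARPIN rose by 0.56 in FDX1-OE cells (limma adjusted p = 0.000255) and 0.33 in control cells (adjusted p = 0.0111). RIPK1, a kinase of the TNF receptor complex, rose by 0.61 in FDX1-OE cells (adjusted p = 7.27e-05) and 0.30 in control cells (adjusted p = 0.0113).

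The IKK catalytic subunits split: CHUK fell in FDX1-OE cells (log2 change -0.31, adjusted p = 0.00204) and in control cells (-0.19, adjusted p = 0.0396), while IKBKB rose in FDX1-OE cells (0.22, adjusted p = 0.0105) and did not pass in control cells (0.05, adjusted p = 0.530). The regulatory subunit IKBKG did not pass in either (adjusted p = 0.385 and 0.507). MAP3K14, the non-canonical kinase, had 8.19 and 7.22 FPKM in FDX1-OE cells in ES, against 5.38 and 5.76 FPKM in FDX1-OE cells in DMSO, and rose by 0.40 on the log2 scale (adjusted p = 0.00142). In control cells it did not pass (log2 change 0.16, adjusted p = 0.125). Of the adaptors that restrain MAP3K14, TRAF3 fell in control cells (log2 change -0.31, adjusted p = 0.00480) and did not pass in FDX1-OE cells (-0.09, adjusted p = 0.265), and TRAF2 did not pass in either (0.11, adjusted p = 0.209, and -0.09, adjusted p = 0.330).

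Of 14 tested further inhibitors, atypical IkB proteins and deubiquitinases, 8 rose and 1 fell with ES in FDX1-OE cells, and 5 rose and 1 fell in control cells (median log2 change 0.36 and 0.10), where of all genes 37% rose and 19.2% fell in FDX1-OE cells and 25.5% rose and 12.9% fell in control cells. NFKBIZ entered the test through FDX1-OE cells in ES alone, and without it 7 of 13 rose in FDX1-OE cells and 5 of 13 in control cells. NFKBID, an atypical nuclear IkB protein, had 11.1 and 11.4 FPKM in FDX1-OE cells in ES, against 2.83 and 4.03 FPKM in FDX1-OE cells in DMSO (a log2 change of 1.48, limma adjusted p = 1.31e-05). Control cells had 6.99 and 5.58 FPKM in ES, against 3.72 and 2.84 FPKM in DMSO (log2 change 0.77, adjusted p = 0.00193). TRAFD1, a negative regulator of innate signalling, rose by 0.95 on the log2 scale in FDX1-OE cells (adjusted p = 1.03e-05) and by 0.45 in control cells (adjusted p = 0.00259). BCL3, a nuclear partner of the processed NFKB1 and NFKB2 products, rose by 0.62 (adjusted p = 0.000853) and 0.43 (adjusted p = 0.0122) in FDX1-OE and control cells. TAX1BP1, an adaptor of A20, rose by 0.32 (adjusted p = 0.000615) and 0.35 (adjusted p = 0.000934).

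CYLD, a deubiquitinase that restrains NF-kB, rose in FDX1-OE cells (log2 change 0.39, limma adjusted p = 0.00391) and did not pass in control cells (0.19, adjusted p = 0.124). NFKBIZ stood at 1.62 and 1.61 FPKM in FDX1-OE cells in ES and at or below 0.704 FPKM in the other 6 libraries. Since it reached 1 FPKM in that group alone, its log2 changes of 0.82 in FDX1-OE cells and 0.07 in control cells are given without a test. NFKBIB, like NFKBIE a classical inhibitor, did not pass in FDX1-OE cells (log2 change -0.16, adjusted p = 0.0762) or control cells (-0.09, adjusted p = 0.348), and nor did the A20 partner TNIP1 (adjusted p = 0.774 and 0.895).

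Receptors that feed NF-kB in B cells were tested for 11 genes, of which 7 rose and 1 fell in FDX1-OE cells and 5 rose and 0 fell in control cells (median log2 change 0.45 and 0.13), where of all genes 37% rose and 19.2% fell in FDX1-OE cells and 25.5% rose and 12.9% fell in control cells. Only 11 of the 18 listed receptors reached the filter. Without TLR7, which entered the test through FDX1-OE cells in ES alone, 6 of 10 rose in FDX1-OE cells and 5 of 10 in control cells. TNFRSF1A stays in both counts, though it reached 1 FPKM in ES libraries alone and so entered through the groups where it is high. CD40, the receptor that drives both routes in germinal-centre B cells, had 43.2 and 42.1 FPKM in FDX1-OE cells in ES, against 18.3 and 17.1 FPKM in FDX1-OE cells in DMSO (a log2 change of 1.22, limma adjusted p = 1.96e-07). Control cells had 28.3 and 27.4 FPKM in ES, against 19.1 and 19.3 FPKM in DMSO (log2 change 0.51, adjusted p = 0.000121), and the difference between the responses passed (log2 difference 0.71, adjusted p = 0.00268). CD79A, a signalling chain of the B-cell receptor, rose by 0.46 (adjusted p = 1.65e-05) and 0.33 (adjusted p = 0.000467) in FDX1-OE and control cells. TNFRSF1A, the main TNF receptor, had 3.79 and 3.08 FPKM in FDX1-OE cells in ES, 0.571 and 0.327 FPKM in FDX1-OE cells in DMSO, 1.86 and 1.40 FPKM in control cells in ES, and 0.302 and 0.365 FPKM in control cells in DMSO, and rose in both (adjusted p = 3.57e-06 and 0.000282). The RNA sensor TLR7 was at 1.16 and 1.04 FPKM in FDX1-OE cells in ES and at or below 0.149 FPKM in the other 6 libraries.

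Of 29 tested textbook targets outside the 10 genes, 25 rose and 0 fell with ES in FDX1-OE cells, and 20 rose and 0 fell in control cells (median log2 change 1.08 and 0.55), where of all genes 37% rose and 19.2% fell in FDX1-OE cells and 25.5% rose and 12.9% fell in control cells. This list shares 3 genes with the inhibitor list, and 11 listed targets did not reach the filter. The ES log2 change was larger in FDX1-OE cells for 25 of the 29, as it was for 55.2% of all tested genes and 8 of the 10 subunits and feedback genes. The difference between the genotypes passed for 15 of the 29 and was positive for each, where 3.25% of all tested genes passed with a positive difference and 1.05% with a negative one. Without NFKBIZ, 24 of 28 rose in FDX1-OE cells, 20 of 28 in control cells, and the difference passed for 14 of 28. These counts still hold CCL22, which reached 1 FPKM in ES libraries alone, in both genotypes. For such genes the filter favours a rise with ES, and the other targets were not checked for this. CCL22, a chemokine that draws T cells, had 6.69 and 8.14 FPKM in FDX1-OE cells in ES, against 0.0292 and 0.144 FPKM in FDX1-OE cells in DMSO (a log2 change of 2.95 on FPKM + 1, limma adjusted p = 7.85e-08). In control cells it had 1.80 and 2.24 FPKM in ES, against 0.148 and 0.220 FPKM in DMSO (log2 change 1.35, adjusted p = 2.26e-05). LTB, the membrane subunit of lymphotoxin and a ligand of the non-canonical route, had 47.7 and 43.8 FPKM in FDX1-OE cells in ES, against 12.3 and 11.1 FPKM in FDX1-OE cells in DMSO (a log2 change of 1.88, limma adjusted p = 7.85e-08). In control cells LTB had 31.6 and 30.2 FPKM in ES, against 14.5 and 13.2 FPKM in DMSO (log2 change 1.11, adjusted p = 4.50e-06).

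**Figure D5:**
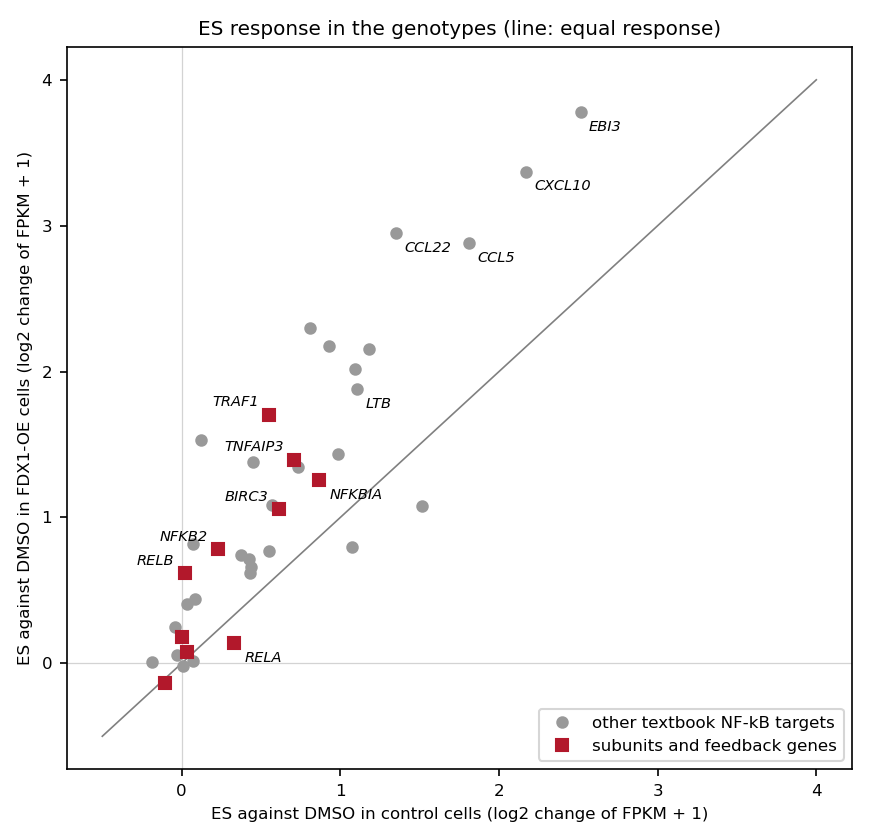
ES log2 change of FPKM + 1 in FDX1-OE cells (vertical) against that in control cells (horizontal) for the 10 subunits and feedback genes (red squares) and 29 further NF-kB targets (grey points), with the line of equal response. Of the grey points 25 lie above the line, and RELA and REL are the red squares below it.

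The chemokines CXCL10 and CCL5 are also interferon-induced, and both were already higher in FDX1-OE cells in DMSO. CXCL10 had 6.04 and 5.85 FPKM in FDX1-OE cells in DMSO, against 1.79 and 1.73 FPKM in control cells in DMSO (log2 difference 1.33, limma adjusted p = 0.000304). CCL5 had 5.07 and 6.42 FPKM in FDX1-OE cells in DMSO, against 2.57 and 2.57 FPKM in control cells in DMSO (log2 difference 0.91, adjusted p = 0.00289). With ES, CXCL10 rose by 3.37 on the log2 scale in FDX1-OE cells and 2.17 in control cells, and CCL5 by 2.88 and 1.81.

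The genes whose profile over the 8 libraries came closest to a member were found by the root mean square difference of log2(FPKM + 1), each gene centred on its own mean, for the 3 members whose group means ranged most. TRAF1 lay closest to APOL1 (difference 0.0994), CCDC146 (0.117) and SPATS2L (0.134). These 3 were at or below 0.294 FPKM on average in FDX1-OE and control cells in DMSO, far below TRAF1, and at 2.50, 2.69 and 2.44 FPKM in FDX1-OE cells in ES. In control cells in ES they averaged 0.651, 0.618 and 0.691 FPKM, so by group means they reached 1 FPKM in FDX1-OE cells in ES alone. At such low levels the added 1 holds down their log2 changes. Their closeness to TRAF1 holds on this scale and was not tested. TNFAIP3 lay closest to HEXD (0.0462), TMEM229B (0.0645) and LOXL2 (0.0686), and NFKBIA to CPNE5 (0.0825), HEXD (0.0858) and TNFAIP3 (0.0992). HEXD had 21.4 FPKM in FDX1-OE cells in ES, 8.05 FPKM in FDX1-OE cells in DMSO, 12.4 FPKM in control cells in ES and 7.15 FPKM in control cells in DMSO on average.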

How the data were processed

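RNA-seq of 8 libraries gave one table each. The deposited values are FPKM, made by the authors, though the file headers name no unit. An earlier account of these data gives FPKM, and the values fall in steps set by gene length and library total. The submitters' processing notes name HISAT2, HTSeq, R 3.2.0 and build hg19; the roles of these, the annotation and strand handling are not given in those notes or the labels. Promoter and exon coordinates are from GRCh38 and were not joined to hg19. Dividing each gene's values by their common step gave whole reads for 100% of genes (tolerance 0.02 read). voom on these reads called 5722 genes for ES in FDX1-OE cells, 4062 for ES in control cells, 82 between genotypes in DMSO, 2475 in ES and 639 for the difference of responses, against 5510, 3767, 50, 2094 and 422 on FPKM.

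limma 3.58.1 in R 4.3.3 was run on log2(FPKM + 1), with 4 group means fitted to 8 libraries (4 residual and 6.6 prior degrees of freedom), a mean trend and Benjamini-Hochberg adjustment over 9805 genes that reached 1 FPKM in 2 or more libraries. Two-sided tests were called at an adjusted p under 0.05. Folds are of FPKM + 1, which understates changes of low genes. Both steps were tested on simulated data. The labels do not say that replicates were separate cultures, so the p-values reflect spread among libraries, which may be technical. The alternatives were pseudocount 0.1, no filter, a mean of at least 5 FPKM, RLE scaling, a fit to 4 libraries, a replicate block, voom on recovered reads and leaving out each library. Comparisons that share libraries are given side by side only.

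The members and lists were chosen with earlier results of these data known. Named genes were the 10 members, FDX1, up to 4 per list with the smallest adjusted p for ES in FDX1-OE cells, and 11 core regulators. Some genes that this rule or the marker lists name are not reported here.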

Additional observations from a re-analysis of the deposited data

Results flagged for a closer look

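The response to ES differed between FDX1-OE and control cells, by the interaction term of limma at an adjusted p below 0.05, for 5 of the 10 genes. By the same term 3.25% of all tested genes passed with a positive difference and 1.05% with a negative one. The log2 differences of the 5 genes were 1.15 for TRAF1, 0.69 for TNFAIP3, 0.60 for RELB, 0.56 for NFKB2 and 0.44 for BIRC3, all larger in FDX1-OE cells. The calls beside TRAF1 lay close to the threshold, and each was lost in some of the alternatives. Of the other genes named, the same term passed for CCL22 (1.60, adjusted p = 0.00211), CXCL10 (1.20, adjusted p = 0.00420), CCL5 (1.07, adjusted p = 0.00522), LTB (0.77, adjusted p = 0.00420), CD40 (0.71, adjusted p = 0.00268) and TRAFD1 (0.50, adjusted p = 0.0470). TLR7 (0.90) and NFKBIZ (0.75) reached 1 FPKM in FDX1-OE cells in ES alone. They entered the test through the group where they are high, and their differences are given as values with no test. TNFAIP3 and CCL22 reached 1 FPKM in ES libraries alone, in both genotypes, and so also entered through groups where they are high. The summed myeloid markers moved in the same direction across the groups, with values given beside the depth of the libraries, and their part in these differences was not tested.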

How the results depend on the processing

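The counts of genes called for ES in control cells (5 to 6), for ES in FDX1-OE cells (6 to 7), for the genotypes in DMSO (0) and for the genotypes in ES (5 to 8) stayed within 1.5 times under every alternative. The count for the difference of responses was 5, and 3 with pseudocount 0.1, 1 without the filter and 1 to 4 with a library left out; the cause was not tested. The rises of NFKBIA, TNFAIP3, TRAF1 and BIRC3 in both genotypes, of RELA in control cells and of NFKB2 and RELB in FDX1-OE cells passed in every alternative run; TNFAIP3 was not tested at a mean of at least 5 FPKM, and the interaction has no fit to 4 libraries. Deviations of same-numbered libraries correlated between -0.18 and 0.18. They were negative between control cells in DMSO and each other group (-0.18 to -0.05) and positive among the other groups (0.10 to 0.18). With the replicate block the counts were 6, 7, 0, 6 and 5, with no call of the 10 genes changed. That block follows the numbers as given, so a batch shared under another numbering was not tested. On all tested genes voom called 82 between genotypes in DMSO, against 50, and 639 for the difference of responses, against 422. The median over all tested genes in FDX1-OE cells was 0.01 with RLE scaling, against 0.09.

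Signs turned only for values that did not pass. With RLE scaling they turned for ES in control cells for RELB (-0.045) and NFKBIE (-0.027), for ES in FDX1-OE cells for NFKBIE (-0.019), and between genotypes in ES for NFKBIE (-0.0094). With a library left out, the log2 change for ES in control cells ran from -0.036 to 0.034 for NFKB1 and from -0.11 to 0.16 for RELB. Between genotypes in DMSO it ran from -0.051 to 0.018 for NFKB1, -0.044 to 0.080 for RELA, -0.045 to 0.098 for NFKB2, -0.042 to 0.0056 for NFKBIE, -0.013 to 0.21 for TNFAIP3 and -0.10 to 0.057 for BIRC3. Between genotypes in ES it ran from -0.043 to 0.083 for NFKBIE. The difference of responses ran from -0.13 to 0.075 for REL and from -0.025 to 0.10 for NFKBIE. The cause was not tested. With 2 libraries a group, small changes such as these were not resolved.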
